A study of Mus musculus with 8 samples.

Results

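Heat shock chaperones are the proteins that bind unfolded or misfolded chains and return them to a folded state or pass them on for degradation. The 10 genes described here were chosen by symbol from the deposited table of the whole series and make up 10 of its 23401 genes. They are the inducible HSP70 pair Hspa1a and Hspa1b, the constitutive HSP70 Hspa8, the HSP70 partners Hsph1, Dnajb1 and Bag3, the inducible cytosolic HSP90 Hsp90aa1, the small heat shock proteins Hspb1 and Cryab, and the mitochondrial co-chaperonin Hspe1. All 10 passed the filter on low values used for testing.

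RNA sequencing was done on mouse astrocytes kept in a conventional culture (CV) or in a culture that the labels name MGS without spelling out its letters, and the sample descriptions use the words soft for MGS and hard for CV. Samples of both cultures were taken on day 5 and day 32. This gave 4 groups of 2 libraries (MGS day 5, CV day 5, MGS day 32, CV day 32), 8 in all. The labels give no strain, age, genotype or added agent for any group and do not say how the astrocytes were isolated or whether the 2 libraries of a group were separate cultures. The spread behind each p-value is therefore that of these libraries alone and could be technical.

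In the heat shock response, unfolded protein draws HSP70 and HSP90 away from heat shock factor 1 (Hsf1), which then forms trimers and binds repeated units of the letters GAA, or TTC on the other strand, before its target genes. HSP70 works as a cycle: a J-domain protein such as Dnajb1 delivers the client and stimulates ATP hydrolysis, and nucleotide exchange factors such as Hsph1 and Bag3 release it. Small heat shock proteins hold unfolding clients without ATP, and in the brain Cryab and Hspb1 are known as stress proteins of reactive astrocytes and as components of Rosenthal fibres.

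The bases before the starts of 4 members are shown first, because they hold the repeated units to which the factor is known to bind. They come from RefSeq promoters on GRCm38.p6, run 5′ to 3′ on the gene's own strand, and give the last 150 bases before the start. Capitals mark pairs of opposed units, GAANNTTC or TTCNNGAA, with overlapping pairs run together.
Hspa1a: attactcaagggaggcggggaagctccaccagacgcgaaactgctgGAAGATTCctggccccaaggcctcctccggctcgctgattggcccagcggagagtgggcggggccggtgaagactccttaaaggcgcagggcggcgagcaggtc
Hspa1b: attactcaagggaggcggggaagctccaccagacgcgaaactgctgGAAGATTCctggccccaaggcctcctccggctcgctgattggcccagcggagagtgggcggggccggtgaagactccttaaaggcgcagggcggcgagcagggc
Hspb1: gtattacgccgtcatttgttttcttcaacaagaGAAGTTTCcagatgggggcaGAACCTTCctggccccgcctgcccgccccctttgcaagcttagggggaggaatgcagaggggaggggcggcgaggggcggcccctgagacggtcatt
Hspe1: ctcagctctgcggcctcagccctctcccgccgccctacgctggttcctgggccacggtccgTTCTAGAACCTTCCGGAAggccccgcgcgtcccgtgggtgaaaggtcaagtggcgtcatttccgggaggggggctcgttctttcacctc

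These stretches lie at chr17:34972157-34972306 (minus strand) for Hspa1a, chr17:34959239-34959388 (minus strand) for Hspa1b, chr5:135887769-135887918 (plus strand) for Hspb1 and chr1:55087998-55088147 (plus strand) for Hspe1. The Hspa1a and Hspa1b stretches were identical at 149 of the 150 bases shown and at 247 of the 250 bases before the start. Both carry GAAGATTC with its first base 104 bases before the start. Hspb1 carries GAAGTTTC 117 bases and GAACCTTC 97 bases before its start. In Hspe1 the pairs overlap and form runs of 3 alternating units, in which a further unit follows a pair with the same spacing, that begin 89 and 84 bases before the start.

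Of the 10 members, 7 were matched in the promoter table, whose windows run from 250 bases before to 50 bases after the start. There was no entry under the symbols Hspa8, Hsp90aa1 and Cryab. Dnajb1 and Hsph1 had 2 entries each, and only the entry that starts at the start given in the deposited files was read. A pair of units on either strand was found in 6 of these 7 windows and in 15.1% of all 32851 promoters of the table. Runs of 3 units were found in 2 of the 7, Hspe1 and Hsph1, against 0.603% of all promoters, and every such run also counts as a pair. Hsph1, which also carries TTCTCGAA 54 bases before its start, had its run from base 16 to base 28 after the start, and the pair of Bag3 began at base 43 after it. The Dnajb1 window that was read held none of these letters, and its other entry was not examined. The letters TATAAA on the gene's own strand were found in 0 of the 7 windows and in 8.32% of all promoters. A match of letters describes the sequence and does not show a bound site.

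Together the 10 genes held 0.313% and 0.307% of all transcript abundance (TPM, a length-adjusted abundance scaled to the same total in every library) in the MGS libraries at day 5. They held 0.456% and 0.480% in CV at day 5, 0.370% and 0.350% in MGS at day 32, and 0.325% and 0.355% in CV at day 32. The summed level was therefore lowest in MGS at day 5 and highest in CV at day 5, and MGS and CV overlapped at day 32. Hspa8 alone made up 43.8% to 56.8% of the sum, so the sum says little about the inducible members.

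**Figure D1:**
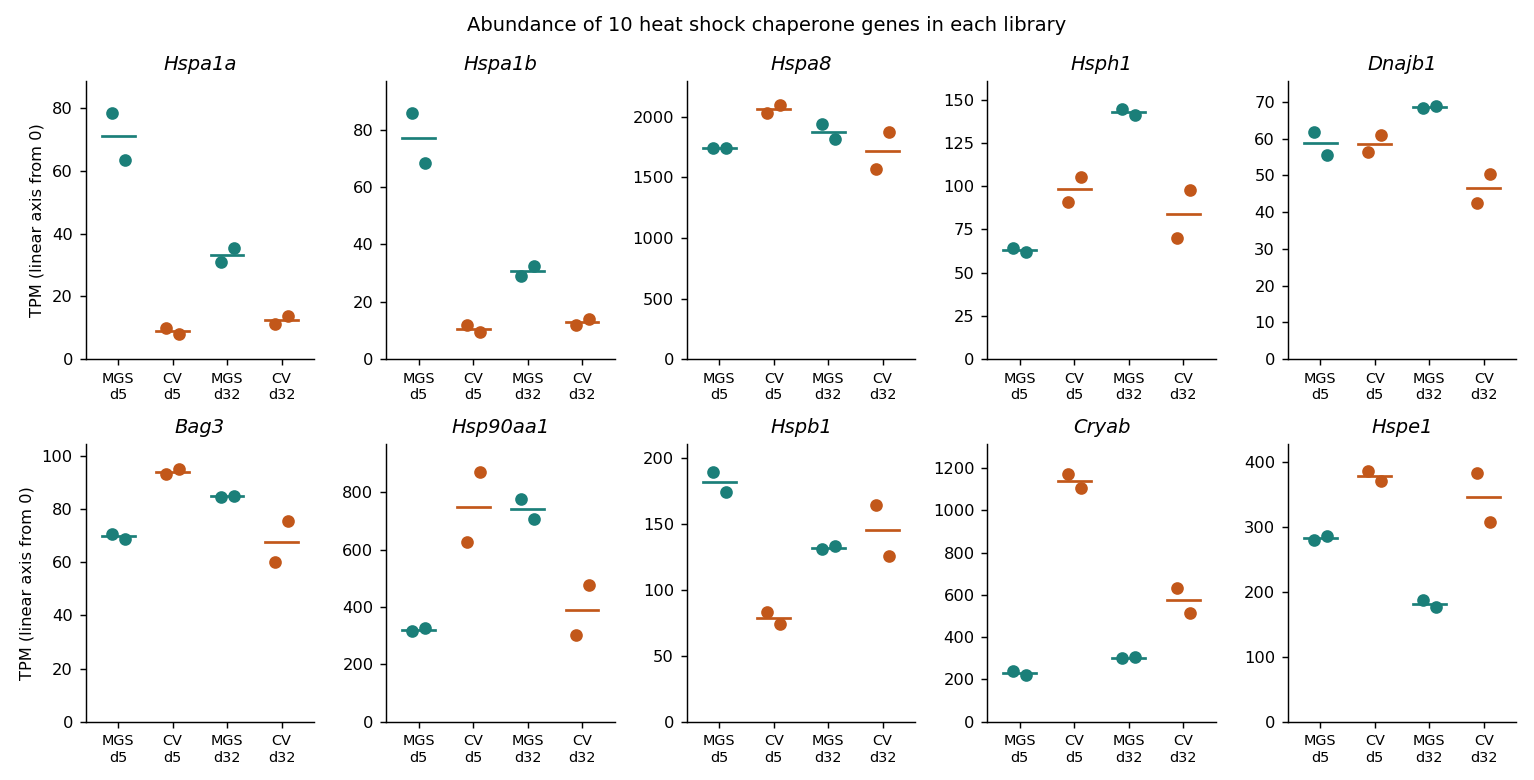
Abundance of the 10 members in each of the 8 libraries: TPM on linear axes that start at 0, by culture and day, with points for libraries and bars for the mean of 2. Hspa1a and Hspa1b were highest in the MGS libraries at day 5 (63.5 to 86.0 TPM), Cryab was highest in the CV libraries at day 5 (1104 and 1171 TPM), and Hspa8 stayed between 1569 and 2100.2 TPM.

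The inducible HSP70 genes were the members furthest above CV in MGS. Hspa1a and Hspa1b, which encode the HSP70 that cells make under stress, stood about 7-fold higher in MGS than in CV at day 5, and at day 32 they were still higher. In MGS they fell between the days. Hspa1a (chromosome 17, 34969359 to 34972156, minus strand, mm10) was measured at 78.6 and 63.5 TPM in MGS and at 9.85 and 7.88 in CV at day 5. At day 32 its values were 31.0 and 35.6 TPM in MGS and 11.0 and 13.8 in CV. All 4 MGS libraries lay above all 4 CV libraries. On the scale of log2(TPM + 1), on which every log2 difference is given and which understates the change of low genes, MGS exceeded CV by 2.87 (standard error, SE, 0.19, adjusted p = 1.97e-05) at day 5 and by 1.36 (SE 0.19, adjusted p = 0.000560) at day 32.

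Hspa1b (chromosome 17, 34956429 to 34959238, minus strand) gave 86.0 and 68.5 TPM in MGS and 11.9 and 9.27 in CV at day 5. Its values at day 32 were 29.1 and 32.5 TPM in MGS and 11.9985 and 14.0 in CV. It thus had the same order of groups as Hspa1a, again with no overlap between the cultures at either day. The log2 difference between MGS and CV was 2.76 (SE 0.18, adjusted p = 2.13e-05) at day 5 and 1.18 (SE 0.18, adjusted p = 0.000986) at day 32. Both differences of both genes were called under every alternative tried.

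Hspa1a and Hspa1b cannot be read as independent measurements. Their coding sequences in the GENCODE annotation of GRCm38, 1923 and 1926 bases, were 99.6% identical, with 8 differing bases and 3 bases in gaps, and the genes lie 10120 bases apart. How reads that match both were assigned was not given in the sources used here. Summed, the pair held 148 ± 23.0 TPM (SD, n = 2) in MGS and 19.5 ± 3.28 in CV at day 5, and 64.1 ± 5.63 in MGS and 25.4 ± 3.37 in CV at day 32. The sum, an alternative added after the data were seen, gave log2 differences of 2.87 at day 5 (adjusted p = 1.52e-05) and 1.303 at day 32 (adjusted p = 0.000533). The sum does not depend on how reads were shared between the copies.

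Over time the inducible pair fell in MGS. From day 5 to day 32 the log2 difference within MGS was -1.07 for Hspa1a (SE 0.19, adjusted p = 0.00439) and -1.29 for Hspa1b (SE 0.18, adjusted p = 0.00181). The Hspa1a call was lost without MGS day 5 replicate 1, at -0.91, and its adjusted p over the alternatives ran from 6.79e-06 to 0.0539. In CV the day 32 libraries of Hspa1a lay above those of day 5, but neither Hspa1a (0.44, adjusted p = 0.0779) nor Hspa1b (0.28, adjusted p = 0.227) passed the threshold. Each was called higher under all 4 other scalings of the libraries, where Hspa1a ran from 0.63 to 0.81. Without CV day 32 replicate 1 Hspa1a was called too, at 0.59, with an adjusted p from 0.00267 to 0.420 over the alternatives.

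Immediate early genes, which cells induce within minutes of handling or stimulation, were also higher in MGS. Of all genes, 22.5% were called higher in MGS at day 5 and 52.8% at day 32. Of the 10 immediate early genes listed (among them Fos, Jun, Egr1 and Atf3), 9 were called higher at day 5 and 8 at day 32, and none was called lower. Their summed level ran from 5629 to 6074 TPM in MGS and from 1026 to 1029 in CV at day 5, and from 5072 to 5410 in MGS and from 1697 to 2112 in CV at day 32. None of the 10 was listed at 0 in a group. Within MGS, 3 of the 10 were called lower and 1 higher at day 32, beside 7.53% and 35.0% of all genes. Within CV 6 were higher and 1 lower, beside 16.0% and 37.7% of all genes. The part of the immediate early genes in the Hspa1a and Hspa1b results was not tested.

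Hspa8, which encodes the constitutive HSP70 of the cytosol and uncoats clathrin vesicles, was the most abundant member and had the smallest ratio, 1.20, of its highest to its lowest group mean. Hspa8 (chromosome 9, 40801273 to 40805199, plus strand) was measured at 1745 and 1746 TPM in MGS and at 2029 and 2100.2 in CV at day 5. Its level at day 32 was 1945 and 1814 TPM in MGS and 1569 and 1875 in CV. The cultures did not overlap at day 5, with CV higher, and overlapped at day 32. The log2 difference was -0.24 at day 5 (SE 0.11, adjusted p = 0.112) and 0.13 at day 32 (SE 0.11, adjusted p = 0.326), and neither passed the threshold. The sign at day 32 depends on the scaling, since Hspa8 was called lower, at -0.50, with median-of-ratios scaling and higher, at 0.52, with quantile normalization (adjusted p over the alternatives from 0.00506 to 0.981). Without CV day 32 replicate 2 it was called higher, at 0.26, and without either CV library of day 32 the day 5 difference was called lower, at an unchanged -0.24 (adjusted p over the alternatives from 0.0181 to 0.840).

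Set against Hspa8 within each library, the inducible pair made a variable supplement. Hspa1a and Hspa1b together came to 9.44% and 7.56% of the Hspa8 level in MGS at day 5 and to 1.07% and 0.816% in CV. At day 32 the ratio was 3.09% and 3.75% in MGS and 1.47% and 1.48% in CV. No scaling factor of a library enters such a ratio. The MGS libraries were above the CV libraries at both days.

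**Figure D2:**
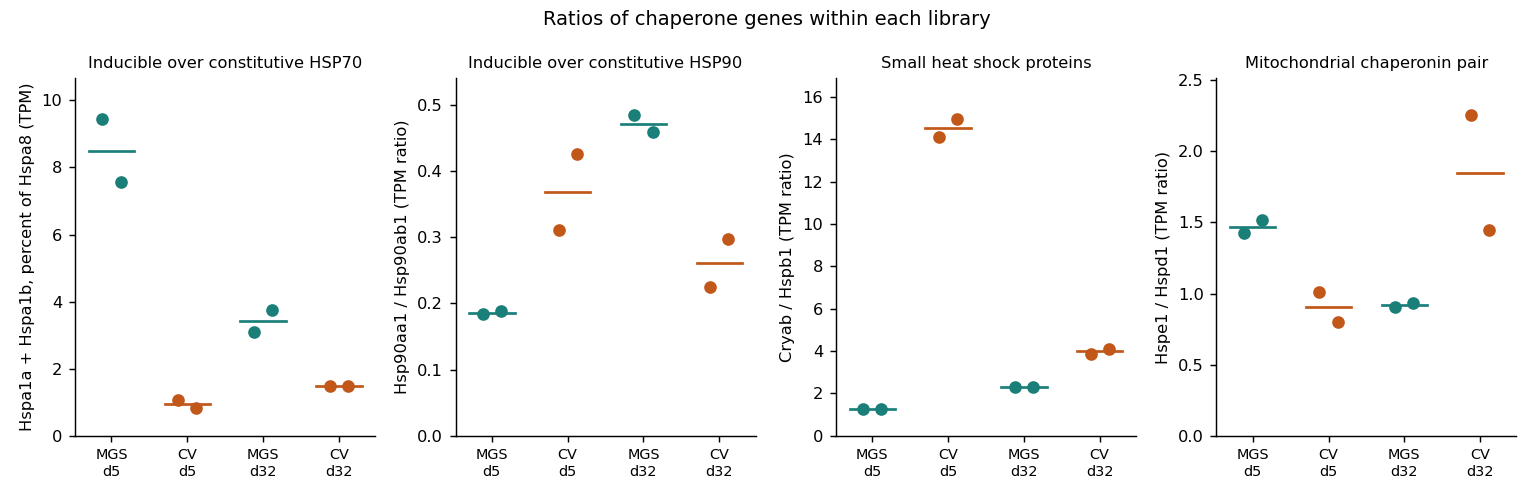
Ratios of TPM within each library, on linear axes from 0, by culture and day, with points for the 2 libraries of a group and bars for their mean. The inducible HSP70 pair came to 8.50% of Hspa8 in MGS and 0.945% in CV at day 5, and the Cryab to Hspb1 ratio was 14.5 in CV and 1.27 in MGS at that day.

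The HSP70 partners Hsph1, Dnajb1 and Bag3 did not follow the inducible pair at day 5. At day 32 they were called higher in MGS in TPM, as the pair was, but not under every scaling. Hsph1, the HSP110 nucleotide exchange factor, was lower in MGS than in CV at day 5 and higher at day 32. Hsph1 (chromosome 5, 149616845 to 149636315, minus strand) stood at 64.0 and 62.2 TPM in MGS and 91.0 and 105 in CV at day 5. The day 32 libraries gave 145 and 141 TPM in MGS and 69.9 and 97.9 in CV. The cultures did not overlap at either day and changed order between them. The log2 difference between MGS and CV was -0.63 at day 5 (SE 0.16, adjusted p = 0.0166) and 0.78 at day 32 (SE 0.16, adjusted p = 0.00436).

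Within MGS Hsph1 rose by 1.17 on the log2 scale from day 5 to day 32 (SE 0.16, adjusted p = 0.00183), a call kept under every alternative, while within CV its libraries overlapped (-0.24, adjusted p = 0.248). The day 5 call was lost without MGS day 5 replicate 1 (-0.65), its replicate 2 (-0.61), or replicate 2 of CV day 5 (-0.52), and its adjusted p over the alternatives ran from 0.000403 to 0.104. The day 32 direction also depends on the processing. Hsph1 has a longest transcript of 4764 bases and lies in the seventh of 8 length classes of the genes tested, in which the median log2 difference at day 32 was 1.01. After correction for length and GC content its difference was -0.16 and called lower, and with median-of-ratios scaling it was 0.15 and not called (adjusted p over the alternatives from 0.000127 to 0.152). In CV, Hsph1 was called lower at day 32 than at day 5 (-0.48) without CV day 32 replicate 2.

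Dnajb1, the J-domain protein that feeds clients to HSP70 and is a usual companion of Hspa1a in the heat shock response, had the same mean in both cultures at day 5 and was higher in MGS at day 32 in TPM. Dnajb1 (chromosome 8, 83608175 to 83611903, plus strand) was measured at 61.8 and 55.7 TPM in MGS and 56.5 and 60.9 in CV at day 5. The day 32 values were 68.4 and 68.8 TPM in MGS and 42.6 and 50.5 in CV. The cultures overlapped at day 5, with means of 58.7 TPM in both, and at day 32 both MGS libraries were above both CV libraries. The log2 difference at day 5 had an SE of 0.12 (adjusted p = 1), and at day 32 it was 0.56 (SE 0.12, adjusted p = 0.00587). That day 32 value equals the median of all genes tested, 0.56, and fell to -0.069 with median-of-ratios scaling and to 0.05 after correction for length and GC content (adjusted p over the alternatives from 0.000713 to 0.558). The call was lost with all 4 other scalings. Between the days Dnajb1 did not pass the threshold in MGS (0.22, adjusted p = 0.180) or in CV (-0.33, adjusted p = 0.0559), although it was called in MGS, at 0.22, without either CV library of day 32 and in CV, at -0.45, without CV day 32 replicate 2.

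Bag3, the co-chaperone that links HSP70 to selective autophagy and to small heat shock proteins, was lower in MGS at day 5. Bag3 (chromosome 7, 128523583 to 128546979, plus strand) stood at 70.9 and 69.0 TPM in MGS and 93.2 and 95.2 in CV at day 5. The values at day 32 were 84.6 and 85.1 TPM in MGS and 60.0 and 75.5 in CV. The cultures changed order between the days and overlapped at neither. The log2 differences were -0.42 at day 5 (SE 0.13, adjusted p = 0.0267) and 0.33 at day 32 (SE 0.13, adjusted p = 0.0494).

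Neither Bag3 call held under every alternative. The day 5 call was lost without either MGS library of day 5, either CV library of day 5 or either MGS library of day 32 (-0.44 to -0.41), and with median-of-ratios scaling (-0.23, adjusted p over the alternatives from 0.000171 to 0.140). The day 32 call was lost on leaving out each library in turn, except CV day 32 replicate 2 (0.17 to 0.33, adjusted p over the alternatives from 0.000831 to 0.686), with 0.17 without CV day 32 replicate 1. With median-of-ratios scaling Bag3 was called lower at day 32, at -0.30, and it stood at -0.053 in FPKM and at -0.13 after correction for length and GC content. Its fall within CV from day 5 to day 32 (-0.48, SE 0.13, adjusted p = 0.0162) was lost when CV day 5 replicate 1 (-0.49) or replicate 2 (-0.46) was left out, with median-of-ratios scaling (-0.085) and in FPKM (-0.21), and its adjusted p over the alternatives ran from 0.000365 to 0.449. The fall in CV was also lost when the 4 CV libraries were fitted alone and when libraries were weighted by their quality. Within MGS Bag3 did not pass the threshold (0.28, adjusted p = 0.111), but did, at 0.28, without either CV library of day 32.

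Hsp90aa1, the inducible cytosolic HSP90, was lower in MGS than in CV at day 5 and higher at day 32. Hsp90aa1 (chromosome 12, 110691036 to 110696395, minus strand) was measured at 317 and 326 TPM in MGS and at 627 and 869.9 in CV at day 5. By day 32 it was 776 and 709 TPM in MGS and 302 and 478 in CV. The cultures did not overlap at either day, and their order was reversed at day 32. The libraries of each CV group lay further apart than those of each MGS group.

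MGS differed from CV by -1.20 at day 5 (SE 0.23, adjusted p = 0.00430) and by 0.96 at day 32 (SE 0.23, adjusted p = 0.00785) for Hsp90aa1. Within MGS the gene rose by 1.20 from day 5 to day 32 (SE 0.23, adjusted p = 0.00650) and within CV it fell by 0.96 (SE 0.23, adjusted p = 0.0115). Only the day 5 difference was called under every alternative. The fall in CV was not called when the 4 CV libraries were fitted alone. The day 32 call was lost without MGS day 32 replicate 1 (0.90) and with median-of-ratios scaling (0.33), with an adjusted p over the alternatives from 0.000600 to 0.0980. The rise in MGS was lost without MGS day 5 replicate 1 (1.18) or MGS day 32 replicate 1 (1.14), at adjusted p values over the alternatives from 2.43e-07 to 0.0525, and the fall in CV without CV day 5 replicate 2 (-0.72), from 0.000714 to 0.0793.

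Hsp90ab1, the constitutive cytosolic HSP90, was abundant in all groups and passed the threshold in neither comparison of the cultures in TPM. It held 1729 ± 13.4 TPM (SD, n = 2) in MGS and 2030.1 ± 16.9 in CV at day 5, and 1573 ± 38.5 in MGS and 1478 ± 191 in CV at day 32. The log2 difference was -0.23 at day 5 (adjusted p = 0.119) and 0.10 at day 32 (adjusted p = 0.461). At day 32 Hsp90ab1 was called lower with median-of-ratios scaling (-0.54) and after correction for length and GC content (-0.31). The ratio of Hsp90aa1 to Hsp90ab1 within a library was 0.184 and 0.188 in MGS and 0.310 and 0.426 in CV at day 5. At day 32 it was 0.485 and 0.459 in MGS and 0.225 and 0.297 in CV, so the order of the cultures was reversed in the ratio as well.

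The small heat shock proteins went opposite ways at day 5. Hspb1 (HSP27, which also caps actin filaments) was about 2-fold higher in MGS, and Cryab (alpha-B crystallin, the small heat shock protein first known from the lens) was about 5-fold lower. Hspb1 (chromosome 5, 135887919 to 135889563, plus strand) stood at 189 and 174 TPM in MGS and 83.0 and 73.9 in CV at day 5. At day 32 it stood at 130.5 and 133 TPM in MGS and 164 and 125 in CV. The cultures were apart at day 5, and at day 32 the MGS libraries lay between the CV libraries.

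For Hspb1 the log2 difference was 1.20 at day 5 (SE 0.14, adjusted p = 0.000412), called under every alternative, and -0.12 at day 32 (SE 0.14, adjusted p = 0.471). Within CV it rose by 0.87 from day 5 to day 32 (SE 0.14, adjusted p = 0.00240), the only change within CV called under every alternative. Within MGS it fell by 0.46 (SE 0.14, adjusted p = 0.0380), a call lost on leaving out any 1 MGS library or any 1 CV library of day 5 (-0.52 to -0.40, adjusted p over the alternatives from 2.98e-05 to 0.200). At day 32 Hspb1 was called lower in MGS without CV day 32 replicate 2 (-0.32) and with median-of-ratios scaling (-0.75), with an adjusted p over the alternatives from 0.0214 to 0.670.

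Cryab (chromosome 9, 50752758 to 50756633, plus strand) was measured at 239 and 221 TPM in MGS and at 1171 and 1104 in CV at day 5. At day 32 it was 300.0 and 306 TPM in MGS and 634 and 515 in CV. Every CV library lay above every MGS library, with the day 5 libraries of CV highest. The log2 difference was -2.30 at day 5 (SE 0.12, adjusted p = 7.16e-06) and -0.91 at day 32 (SE 0.12, adjusted p = 0.000442), and both were called under every alternative. Within CV Cryab fell by 0.99 from day 5 to day 32 (SE 0.12, adjusted p = 0.000539), a call that median-of-ratios scaling alone removed (-0.59, adjusted p over the alternatives from 4.69e-06 to 0.0606).

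Within MGS Cryab rose by 0.40 (SE 0.12, adjusted p = 0.0318). That call was lost without any single MGS library (0.34 to 0.45), and the value was -0.033 with median-of-ratios scaling, with an adjusted p over the alternatives from 3.44e-05 to 0.914. In a library of MGS at day 5 the level of Cryab was 1.26 and 1.27 times that of Hspb1, against 14.1 and 14.9 times in CV. At day 32 the ratio was 2.30 in both MGS libraries and 3.86 and 4.11 in CV. The balance of the 2 small heat shock proteins therefore lay furthest towards Cryab in CV at day 5.

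Hspb2, a small heat shock protein of muscle, starts 403 bases from Cryab on the other strand and had a different order of groups. It held 12.2 ± 0.440 TPM (SD, n = 2) in MGS and 8.05 ± 1.29 in CV at day 5, and 15.0 ± 1.45 in MGS and 8.30 ± 1.39 in CV at day 32. It was higher in MGS by 0.55 at day 5 (adjusted p = 0.0410) and by 0.79 at day 32 (adjusted p = 0.00673), but was -0.030 at day 5 after correction for length and GC content and -0.088 at day 32 with quantile normalization. The Hspb2 level was 5.22% and 5.36% of that of Cryab in MGS and 0.765% and 0.646% in CV at day 5. At day 32 it was 5.35% and 4.56% in MGS and 1.46% and 1.42% in CV.

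Tagln and Acta2, contractile genes on a list of 10 markers of smooth muscle and mural cells, were higher in the CV libraries at both days, as Cryab was. The summed level of the 10 listed genes ran from 877 to 943 TPM in MGS and from 5669 to 6516 in CV at day 5, and from 1171 to 1192 in MGS and from 6408 to 7049 in CV at day 32. In CV the sums of the 2 days overlapped, whereas Cryab fell. Of the 7 tested, 4 were called higher and 3 lower in MGS at each day, and the sums were led by Tagln and Acta2. At day 5 the higher ones were Vtn (6.05), Kcnj8 (1.91), Rgs5 (1.51) and Pdgfrb (1.10). The lower ones at day 5 were Acta2 (-3.42), Tagln (-2.80) and Cnn1 (-3.77). Kcnj8 and Abcc9, which define mural cells, were listed at 0 in both CV libraries of day 32. Their part in the Cryab result was not tested. In bulk RNA, fewer cells of a type and less RNA of a gene per cell cannot be told apart.

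Hspe1, the lid of the mitochondrial chaperonin, was lower in MGS than in CV at both days. Hspe1 (chromosome 1, 55088148 to 55091317, plus strand) stood at 281 and 286 TPM in MGS and 386 and 371 in CV at day 5. At day 32 it stood at 188 and 176 TPM in MGS and 383 and 308 in CV. All 4 CV libraries were above all 4 MGS libraries. The log2 difference was -0.42 at day 5 (SE 0.12, adjusted p = 0.0240) and -0.91 at day 32 (SE 0.12, adjusted p = 0.000457).

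The day 32 difference of Hspe1 was called under every alternative. The day 5 call was lost without either MGS library of day 5, either CV library of day 5 or either MGS library of day 32 (-0.44 to -0.39), and with median-of-ratios scaling (-0.22), quantile normalization (-0.26) and FPKM (-0.28), at adjusted p values over the alternatives from 0.00120 to 0.440. Within MGS Hspe1 fell by 0.64 from day 5 to day 32 (SE 0.12, adjusted p = 0.00596), a call lost without MGS day 5 replicate 2 (-0.62) or MGS day 32 replicate 2 (-0.59), with an adjusted p over the alternatives from 8.03e-07 to 0.0577. Within CV it did not pass the threshold (-0.14, adjusted p = 0.352), but was called lower without CV day 32 replicate 1 (-0.30) and after correction for length and GC content (-0.56, adjusted p over the alternatives from 0.00175 to 0.845).

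Hspd1, which encodes the HSP60 chaperonin that Hspe1 caps, starts 215 bases from Hspe1 on the opposite strand, and the run of units shown above for Hspe1 also lies 127 to 144 bases before the Hspd1 start. Hspd1 held 193 ± 5.55 TPM (SD, n = 2) in MGS and 423 ± 57.4 in CV at day 5, and 198 ± 13.0 in MGS and 192 ± 30.5 in CV at day 32. It was lower in MGS at day 5 by 1.12 on the log2 scale (-1.12, SE 0.14, adjusted p = 0.000586) and did not pass the threshold at day 32 (0.06, adjusted p = 0.742) in TPM. It was called lower at day 32 with median-of-ratios scaling (-0.58), in FPKM (-0.33) and after correction for length and GC content (-0.36). Within CV it fell by 1.14 (adjusted p = 0.000682), where Hspe1 gave -0.14 in TPM. The ratio of Hspe1 to Hspd1 was 1.42 and 1.51 in MGS and 1.01 and 0.799 in CV at day 5, and 0.905 and 0.933 in MGS and 2.25 and 1.44 in CV at day 32, so the order of the cultures was reversed between the days.

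The comparison of the cultures at day 5 divided the 10 members. In MGS, 3 were called higher (Hspa1a, Hspa1b and Hspb1) and 5 lower (Cryab, Hsp90aa1, Hsph1, Bag3 and Hspe1), while Hspa8 and Dnajb1 were not called. Across all 14904 genes tested 48.9% were called, 22.5% higher and 26.4% lower. The libraries of the cultures did not overlap for 9 members, against 83.6% of all genes. The median log2 difference of the members was -0.33 and that of all genes -0.14.

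At day 32 the members called higher in MGS were 6 (Hspa1a, Hspa1b, Hsp90aa1, Hsph1, Dnajb1 and Bag3) and those called lower were 2 (Hspe1 and Cryab). Of all genes, 67.6% were called, 52.8% higher and 14.8% lower, and 8 members did not overlap against 84.4% of all genes. The median of all genes stood at 0.56 above 0, so a rise at this day has to be read against that shift. Relative to it Hspa1a stood at 0.80, Hspa1b at 0.63, Hsp90aa1 at 0.41, Hsph1 at 0.22 and Dnajb1 at 0.00, and Bag3 at -0.23. Hspa8 stood at -0.43 and Hspb1 at -0.68, and Hspe1 and Cryab both at -1.47. These values use 1 reference for all genes, although the median at day 32 rose with transcript length. The class of the shortest transcripts had a median of -0.15, beside differences of -0.12 for Hspb1 and -0.91 for both Hspe1 and Cryab, which belong to it. The class of Hsph1 had a median of 1.01, beside a difference of 0.78 for Hsph1.

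Scaling decides how many members count as higher at day 32. With median-of-ratios scaling, which brings the median of all genes to -0.0029, 2 members were called higher (Hspa1a and Hspa1b) and 5 lower (Cryab, Hspe1, Hspb1, Hspa8 and Bag3). After correction for length and GC content 3 were called higher and 4 lower. Of all calls at day 32, 78.0% were higher in MGS in TPM, 50.1% with median-of-ratios scaling, 47.1% with quantile normalization, 60.1% in FPKM and 43.8% after the correction for length and GC content. Hspa1a and Hspa1b stayed called higher and Hspe1 and Cryab called lower under all 5 scalings at this day. Hspb1, Hspe1 and Cryab belong to the shortest of the 8 length classes, whose median at day 32 was -0.15, against 1.37 in the longest class.

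**Figure D3:**
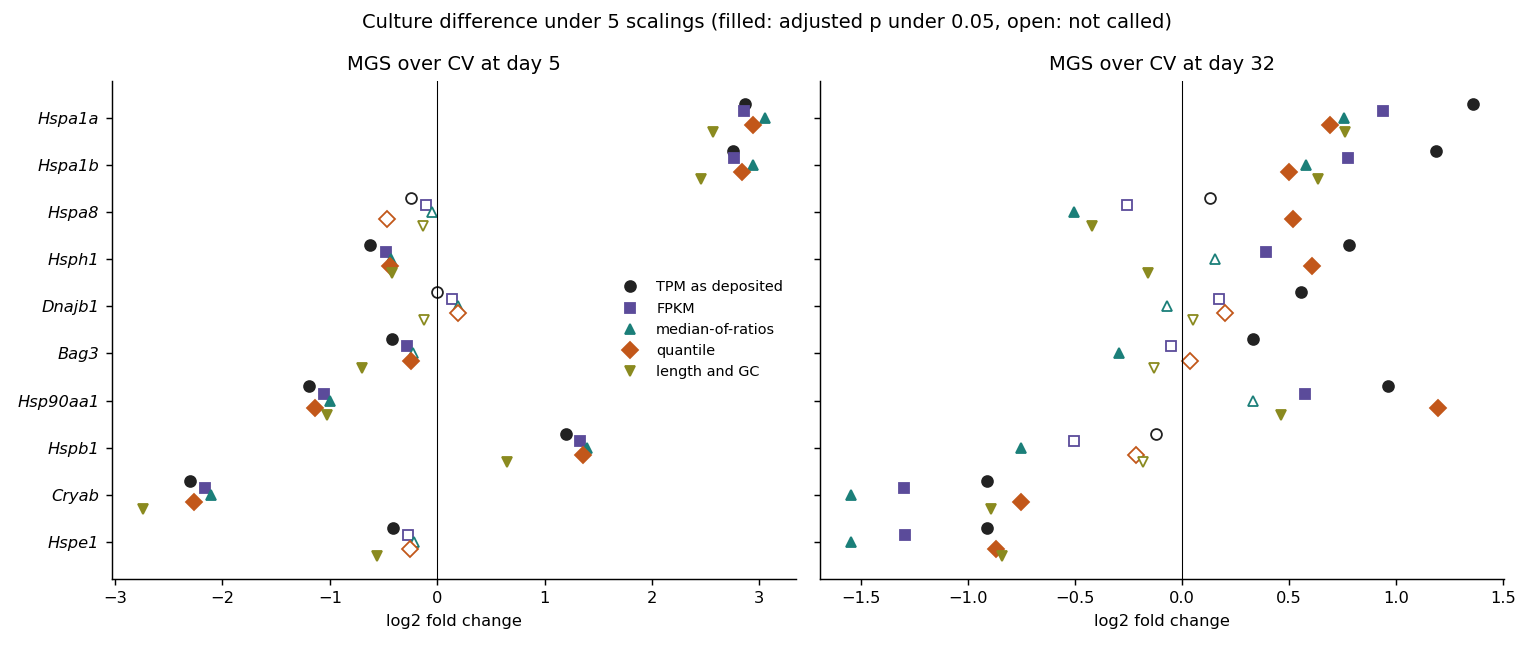
Log2 difference of each member between MGS and CV at day 5 and at day 32 under 5 scalings of the libraries, with filled marks for an adjusted p under 0.05. At day 32 Hspa1a (0.69 to 1.36) and Hspa1b (0.50 to 1.18) lay above 0 and Cryab (-1.55 to -0.75) and Hspe1 (-1.55 to -0.84) below 0 under each, while Hspa8, Hsph1, Dnajb1 and Bag3 lay on both sides of 0.

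Between the days in MGS, 4 members fell (Hspa1a, Hspa1b, Hspb1 and Hspe1) and 3 rose (Hsph1, Hsp90aa1 and Cryab). Of all genes, 42.5% were called in this comparison, 35.0% higher and 7.53% lower at day 32. The libraries of the days did not overlap for any of the 10 members, as for 88.6% of all genes. The falls were measured against a median of all genes of 0.36. Hspa1b at -1.66 and Hspa1a at -1.43 were the lowest members relative to that median, and Hsp90aa1 at 0.84 and Hsph1 at 0.80 the highest. The length class of Hsph1 had a median of 0.65 in this comparison, and that of Hspa1a, Hspa1b and Hsp90aa1 one of 0.27.

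Between the days in CV, only Hspb1 rose, and 3 members fell (Cryab, Hsp90aa1 and Bag3). Calls were made for 53.7% of all genes, 16.0% higher and 37.7% lower, with a median of -0.31. Here 8 members did not overlap, against 72.1% of all genes. Of all calls, 29.8% were higher at day 32 in TPM and 50.4% with median-of-ratios scaling, and in MGS 82.3% and 50.1%. With median-of-ratios scaling the members called in CV were Hspa1a, Hspa1b and Hspb1, higher, and Hsp90aa1, lower.

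The difference between the cultures itself changed with the day for 9 members, in a test of the culture by day interaction in which 62.0% of all genes were called, 49.7% higher and 12.3% lower. The change was towards a smaller or negative difference for Hspa1a (-1.51, SE 0.26, adjusted p = 0.00270), Hspa1b (-1.57, SE 0.26, adjusted p = 0.00208), Hspb1 (-1.32, SE 0.20, adjusted p = 0.00163) and Hspe1 (-0.50, SE 0.17, adjusted p = 0.0358). It was towards a positive or less negative difference for Hsp90aa1 (2.16, SE 0.33, adjusted p = 0.00154), Hsph1 (1.41, SE 0.23, adjusted p = 0.00219) and Cryab (1.39, SE 0.17, adjusted p = 0.000608). Bag3 (0.75, SE 0.18, adjusted p = 0.00908) and Dnajb1 (0.56, SE 0.18, adjusted p = 0.0280) moved the same way, and Hspa8 (0.37, SE 0.16, adjusted p = 0.0745) did not pass the threshold.

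Of these interactions, those of Hspa1a, Hspa1b, Hspb1, Hsph1 and Hsp90aa1 were called under all alternatives run. That of Hsph1 shrank to 0.58 with median-of-ratios scaling and to 0.26 after correction for length and GC content. Under that correction the Hsph1 difference lay below 0 at both days (-0.42 and -0.16). The Cryab interaction was lost with median-of-ratios scaling alone (0.56, adjusted p over the alternatives from 1.3e-05 to 0.164). That of Dnajb1 was lost without MGS day 5 replicate 1 (0.63) or MGS day 5 replicate 2 (0.48). Leaving out CV day 5 replicate 2 (0.50) or either MGS library of day 32 (0.55 and 0.56) removed it as well. It was also lost with quantile normalization (0.0095), in FPKM (0.036) and after correction for length and GC content (0.17). With median-of-ratios scaling it was -0.26 and not called. Under these scalings its adjusted p ran from 0.141 to 0.950. Weighting libraries by their quality removed the call too. The Dnajb1 interaction was kept under 8 of the 19 alternatives. That of Hspe1 was lost without any single library of day 5 or of MGS at day 32 (-0.54 to -0.45) and after correction for length and GC content (-0.28, adjusted p over the alternatives from 0.000916 to 0.131). That of Bag3 was lost with quantile normalization (0.28) and in FPKM (0.23) and was -0.067 with median-of-ratios scaling (adjusted p over the alternatives from 0.000196 to 0.662). The median interaction of all genes was 0.65, and 80.1% of the calls were positive in TPM against 47.5% with median-of-ratios scaling. Hspa8 was called, at 0.50, without CV day 32 replicate 2.

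**Figure D4:**
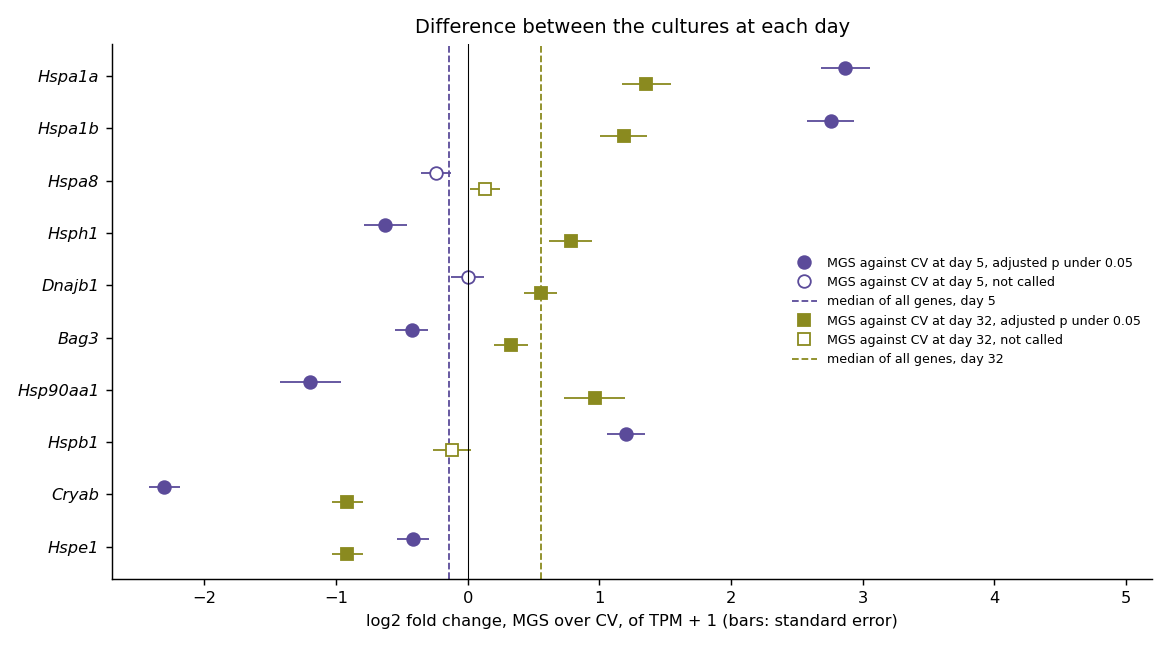
Log2 fold change of MGS over CV for each member at day 5 (circles) and day 32 (squares), with the standard error of the model and with dashed lines at the median of all genes tested (-0.14 and 0.56). Filled marks have an adjusted p under 0.05; Hsp90aa1, Hsph1 and Bag3 lay below 0 at day 5 and above 0 at day 32, and Cryab and Hspe1 below 0 at both.

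Hsph1 and Cryab have no near-identical copy, and the genes with the most similar course over the 8 libraries were looked up for them among 12246 genes. For Hsph1 they were Prex2 (Pearson r = 0.997 of log2 values over 8 libraries), Ubl3 (0.996), Enpp5 (0.995), Prnp (0.993) and Ptprn2 (0.993). Prnp, the prion protein gene, held a mean of 458 TPM in MGS and 859.6 in CV at day 5, and 1411 in MGS and 733 in CV at day 32. For Cryab they were Fdps (0.998), Mvk (0.993), Gdf15 (0.989), Hist1h3g (0.988) and Chst7 (0.988). Fdps and Mvk encode enzymes of the mevalonate pathway, and Fdps held means of 68.5 and 389.9 TPM in MGS and CV at day 5 and of 88.8 and 178 at day 32. These likenesses describe 4 groups of 2 libraries, in which depth also differed between the cultures.

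The other genes of the chaperone network, 106 in 7 lists, of which 96 were tested, were mostly lower in MGS at day 5 where they were called. At that day 12 were higher and 40 lower, beside 22.5% and 26.4% of all genes. Their median log2 difference was -0.36 beside -0.14 for all genes. At day 32, 35 were higher and 16 lower, beside 52.8% and 14.8% of all genes, with a median of 0.25 beside 0.56. The split at day 5 leaned the same way under the other 4 scalings, with 13 to 15 higher and 33 to 54 lower, but at day 32 it turned under each of them, with 17 to 23 higher and 28 to 56 lower. Hsf1, the factor itself, passed the threshold at neither day, at 45.3 ± 1.11 TPM (SD, n = 2) in MGS and 46.7 ± 0.270 in CV at day 5 and 49.8 ± 0.853 and 40.7 ± 4.62 at day 32 (log2 differences -0.04, adjusted p = 0.786, and 0.29, adjusted p = 0.0600). Scaled by median-of-ratios, Hsf1 at day 32 came to -0.33 and was called lower, as it was after correction for length and GC content (-0.24). Of the 7 factors and regulators tested, 1 was higher at day 5 (Hsf4, listed at 0 in both CV libraries and at a mean of 3.45 TPM in MGS) and 2 were lower, Hdac6 (-0.49) and Vcp (-0.39). At day 32, 4 were higher, among them Sirt1 (1.39) and Hsf2 (0.99), and 1 lower, a split that was 2 and 3 with median-of-ratios scaling and 2 and 4 after correction for length and GC content.

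The chaperonins and prefoldins, which fold actin and tubulin in the cytosol and imported proteins in mitochondria, were the list most often called lower. At day 5, 1 of the 14 tested was higher and 11 were lower in MGS, beside 22.5% and 26.4% of all genes. Under the other 4 scalings 10 or 11 were lower at that day. At day 32 none was higher and 7 were lower, beside 52.8% and 14.8% of all genes. Between 5 and 12 were lower under the other scalings at day 32, with 1 higher under quantile normalization. Hspd1 belongs to this list, as do the prefoldin subunits Pfdn1 (-0.96 at day 5, adjusted p = 0.000582, and -1.03 at day 32, adjusted p = 0.000271) and Pfdn4 (-0.91, adjusted p = 0.00327, and -0.70, adjusted p = 0.00722). The list's medians were -0.67 and -0.30, beside -0.14 and 0.56 for all genes.

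Of the 11 other HSP70 and HSP110 genes, MGS held more of 4 and less of 6 at day 5, and at day 32 more of 6 and less of none in TPM. The shares of all genes called higher and lower were 22.5% and 26.4% at day 5 and 52.8% and 14.8% at day 32. Under the other 4 scalings the day 32 split of the 11 genes was 5 and 4 (median-of-ratios), 5 and 1 (quantile), 4 and 2 (FPKM) and 4 and 5 (length and GC content). Hspa2, an HSP70 known from the testis and also made in the brain, rose furthest at day 32, from 23.7 TPM in CV to 239 in MGS (3.29, adjusted p = 1.92e-06), and was higher at day 5 too (1.76). Hspa12b, a distant relative known from endothelium, was higher at both days (3.50 and 2.18), and the HSP110 gene Hspa4l was lower at day 5 (-1.92, adjusted p = 0.000548) and higher at day 32 (1.13, adjusted p = 0.00491). Hspa5, the HSP70 of the endoplasmic reticulum, was called in neither comparison in TPM (-0.15 and 0.04). At day 32 Hspa5 was called lower with median-of-ratios scaling (-0.60), in FPKM (-0.35) and after correction for length and GC content (-0.60). Hspa1l, the HSP70 gene that starts 546 bases from Hspa1a on the other strand, held 1.36 ± 0.0773 TPM (SD, n = 2) in MGS and 0.417 ± 0.212 in CV at day 5 (0.74, adjusted p = 0.0124) and 2.53 ± 0.365 and 0.966 ± 0.408 at day 32 (0.85, adjusted p = 0.00457). The day 32 difference of Hspa1l was -0.10 with quantile normalization.

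The remaining lists held single large changes. Of the 3 other HSP90 genes tested, 2 were lower in MGS at day 5, Hsp90b1 of the endoplasmic reticulum (-0.62) and Trap1 of mitochondria (-0.35), and at day 32 Trap1 was higher (0.63) but stood at -0.0019 with median-of-ratios scaling. Hspb8, the small heat shock protein that forms a complex with Bag3, was higher in MGS at day 32, at 837 TPM against 246 in CV (1.77, adjusted p = 1.56e-05), and lower at day 5 (-0.51, adjusted p = 0.0101). At day 32, 3 of the 5 other small heat shock proteins tested were called higher and none lower, beside 52.8% and 14.8% of all genes. At day 5 the split was 2 and 2, beside 22.5% and 26.4% of all genes. Of these 5 (4 in FPKM), 2 were higher and 1 lower at day 32 with median-of-ratios scaling, quantile normalization and FPKM. Of the 29 other J-domain genes tested, 3 were higher and 8 lower at day 5, beside 22.5% and 26.4% of all genes. The higher ones were led by Dnajb13, a J-domain protein of cilia (2.32, adjusted p = 8.97e-06), and the lower ones by Dnajb5 (-1.38, adjusted p = 0.000242). At day 32 the split of the J-domain genes was 14 higher and 4 lower, but 7 and 12 with median-of-ratios scaling. The median of the J-domain list at day 32, 0.55, lay close to the 0.56 of all genes, of which 52.8% were called higher. Of the 27 co-chaperones of HSP70 and HSP90 tested, 1 was higher and 9 lower at day 5, beside 22.5% and 26.4% of all genes. Cacybp (-0.96) and Chordc1 (-0.85) were among the lower ones. At day 32, 7 co-chaperones were higher and 4 lower, beside 52.8% and 14.8% of all genes. Under the other 4 scalings 1 or 2 were higher and 10 to 19 lower at day 32. Bag1, a nucleotide exchange factor of HSP70 related to Bag3, was lower at day 32 (-0.80, adjusted p = 0.000272).

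**Figure D5:**
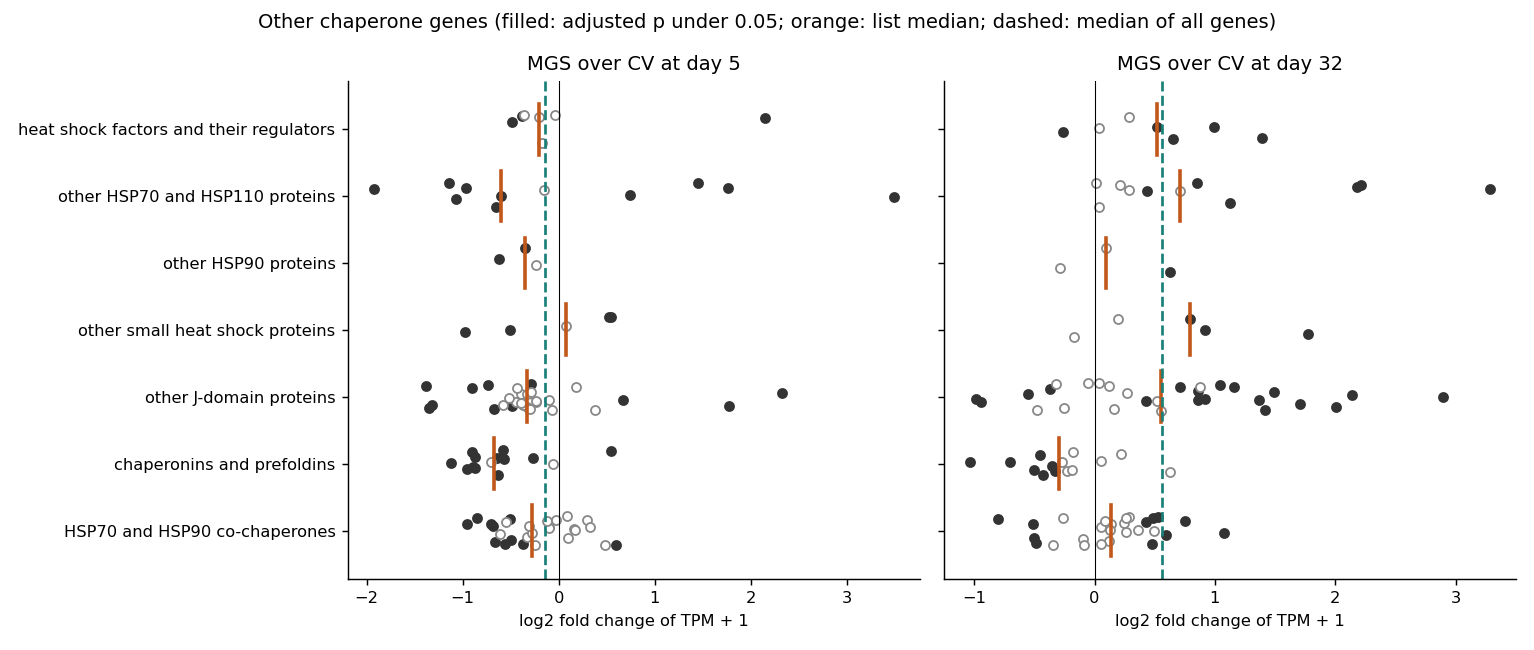
Log2 fold change of MGS over CV at day 5 and day 32 for the tested genes of the 7 other chaperone lists, 1 point per gene, with orange bars at each list's median and a dashed line at the median of all genes (-0.14 and 0.56). Most chaperonins and prefoldins lie left of 0 at day 5, with a median of -0.67.

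The libraries held 2.15 to 4.69 gigabases of aligned sequence, as inferred from coverage and FPKM, and the shallower ones were those of CV. The SD of the log2 difference between replicates across genes was 0.191 and 0.197 in the MGS groups and 0.321 and 0.465 in the CV groups, so values of CV at day 32 are the least precise. The model gave each gene the same spread in all groups, so the SE of a change within CV does not carry this wider spread. Astrocyte markers were present in all libraries, with summed levels of 13944 to 17214 TPM in MGS and 1473 to 3692 in CV, and none was listed at 0 in both libraries of a group. Gfap led these sums, at means of 13733 TPM in MGS and 1599 in CV at day 5 and of 9588 and 754 at day 32. Of the 10 astrocyte markers, 6 were called higher and 1 lower in MGS at day 5, and 9 and 1 at day 32. Aldh1l1 was the lower one at both days (-0.69 and -0.61). Of all genes, 22.5% were called higher and 26.4% lower at day 5, and 52.8% and 14.8% at day 32. Markers of other cells also differed between the cultures: of the meningeal fibroblast list all 8 were called higher in MGS at each day (sums of 12024 to 13914 TPM in MGS against 326 to 459 in CV). All 9 oligodendrocyte markers tested were called higher at day 5 and 8 of them at day 32. Over both days they summed to 1087 to 1583 TPM in MGS against 105 to 163 in CV, with Mog and Opalin at 0 in both CV groups. Microglia markers were higher in MGS at day 5, 9 of 10 (364 to 370.3 TPM against 88.6 to 105), and all 10 were lower at day 32 (462 to 463 against 3758 to 4088). Endothelial markers, 6 of 8 called higher at day 5 and 4 of 8 at day 32, summed to 161 to 242 TPM in MGS and 17.6 to 43.4 in CV, and neuron markers to 91.0 to 144 and 184 to 237. Of the endothelial list 1 gene, Kdr, was lower at day 5 (-1.14), and at day 32 it was among those higher (2.05). Of the 8 neuron markers tested, 3 were higher and 3 lower at day 5 and 4 higher and 1 lower at day 32. The part of these cells in the chaperone levels was not tested.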

How the data were processed

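RNA of 8 libraries was extracted with TRIzol and made into libraries with a directional kit, per the labels' protocols. The tools HISAT2 2.1.0, StringTie 1.3.4d and bcl2fastq, and the builds mm10 and hg38 with no role stated for either, come from the submitters' processing notes. Not given in the sources used here were the annotation release, filters and use of strand. For every gene the authors deposited TPM, FPKM and coverage by library, as the file headers say, and a series table of TPM. FPKM served as an alternative and, together with coverage, the mean depth per base in the deposited files, for depth. Depth was inferred as the most common ratio of coverage to FPKM over rows above a low FPKM cutoff. Between 76.9% and 78.2% of those rows in a library matched that ratio. TPM keeps no depth, and read counts were not recovered, so no counting interval is given.

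Rows of 1 gene ID were summed. For the members the series table and the library files gave the same TPM. Genes with at least 1 TPM in at least 2 of 8 libraries (14904) were tested as log2(TPM + 1) with limma 3.58.1 in R 4.3.3, as 4 group means with trended empirical Bayes moderation, two-sided. Benjamini-Hochberg adjustment ran over all genes tested, and an adjusted p under 0.05 was called. Exact permutation of 2 against 2 libraries cannot give a p below 0.333 and was not used. The fit was tested on simulated data that had the same spread in all groups. That test did not cover the wider spread of the CV groups. Median-of-ratios scaling, quantile normalization, FPKM and a correction for length and GC content (99.2% of the genes had both) are the other scalings. Promoter letters came from RefSeq on GRCm38.p6. Coordinates are those of the files.

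The members and lists were chosen with earlier results of these data known. Named are all 10 members, Hsf1, Hsp90ab1, Hspa5, Hspd1, Hspb2 and Hspa1l, up to 3 called genes of each chaperone list by size of change, the 5 genes most like Hsph1 and Cryab, and the leading genes of marker lists. Other symbols stand only as examples of a list.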

Additional observations from a re-analysis of the deposited data

Results flagged for a closer look

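For 9 members the difference between MGS and CV was not the same at day 5 and at day 32 in the test of the culture by day interaction (limma, Benjamini-Hochberg adjustment). All values here are log2 changes in the MGS to CV difference from day 5 to day 32. Hspa1a changed by -1.51, from a difference of 2.87 to one of 1.36. Hspa1b changed by -1.57, from 2.76 to 1.18. Hspb1 changed by -1.32, from 1.20 to -0.12. Hspe1 changed by -0.50, from -0.42 to -0.91. Hsp90aa1 changed by 2.16, from -1.20 to 0.96. Hsph1 changed by 1.41, from -0.63 to 0.78, but by 0.26, from -0.42 to -0.16, after correction for length and GC content. Cryab changed by 1.39, from -2.30 to -0.91. Bag3 changed by 0.75, from -0.42 to 0.33. Dnajb1 changed by 0.56, and its day 32 value was also 0.56. The median change of all genes tested was 0.65, and 62.0% of them were called.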

How the results depend on the processing

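Each result was recomputed under 20 alternatives (19 for the interaction), and for Hspa1a and Hspa1b also as a sum. Of 1000 member values, 861 kept their side of the threshold, and these include sign changes of values called in neither fit. Of the others, 85 fell below the threshold, 37 passed it and 17 turned direction while called in either fit. The counts of members called moved as follows. At day 5, with 8 called, leaving out 1 library gave 5 to 9. At day 32, with 8 called, it gave 6 to 10. Between days in MGS, with 7 called, it gave 3 to 9. Between days in CV, with 4 called, it gave 2 to 7, the correction for length and GC content gave 9, and the 4 libraries of that comparison alone gave 2.

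The labels do not say that a replicate number marks a shared culture or batch, and correlations of same-numbered deviations between groups ran from -0.13 to 0.44 (highest for CV day 5 with CV day 32), so the numbers were not used to pair libraries. With a replicate block the members called were 8 at day 5, 7 at day 32, 7 in MGS, 4 in CV and 9 in the interaction, and with the block and the correction for length and GC content 8 were called in CV.

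Values that turned direction at day 32 with median-of-ratios scaling were Dnajb1 (-0.069), Hspa8 (-0.50), Bag3 (-0.30), Hsf1 (-0.33), Hsp90ab1 (-0.54), Hspa5 (-0.60), Hspd1 (-0.58) and Trap1 (-0.0019). With the correction for length and GC content, with or without the block, they were Hsph1 (-0.16), Hspa8 (-0.42), Bag3 (-0.13), Hsf1 (-0.24), Hsp90ab1 (-0.31), Hspa5 (-0.60), Hspd1 (-0.36), Hdac6 (-0.30) and Tsc1 (-0.30), and Hspb2 at day 5 (-0.030). In FPKM they were Bag3 (-0.053), Hspa5 (-0.35) and Hspd1 (-0.33), and with quantile normalization Hspb2 (-0.088) and Hspa1l (-0.10). Between days, Hspa8 in MGS (-0.31) and Hsph1 in CV (0.30) turned with the correction, and Cryab in MGS (-0.033) with median-of-ratios scaling, as did the interactions of Dnajb1 (-0.26) and Bag3 (-0.067). Sign changes of values called in neither fit are not listed. The cause of these changes was not tested. TPM carries no depth. Limits here include the 2 libraries a group, the wider spread and lower depth of the CV libraries, and day 32 differences that varied with transcript length.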
